A study of Mus musculus with 9 samples.

Results

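The genes of the interleukin-6 (IL-6) family of cytokines and of the JAK-STAT pathway were followed in RNA-Seq counts of GT1-7-OX1 cells treated with orexin A (OxA). They were chosen by gene symbol, 38 of the 37411 genes in the count table, and fall into 7 ligands, 10 receptors, 4 Janus kinases, 6 STAT transcription factors, 8 SOCS family inhibitors and 3 other regulators. GT1-7 is a mouse hypothalamic neuronal line that makes gonadotropin-releasing hormone. All 9 cultures carried the human orexin receptor OX1, placed in the cells with a lentivirus that also expresses GFP, and the transduced cells with high GFP were expanded without a cloning step being described. For treatment the medium was exchanged for fresh medium with water as vehicle for 8 h (3 cultures), with 200 nM OxA for 3 h (3 cultures) or with 200 nM OxA for 8 h (3 cultures). No vehicle culture was taken at 3 h. The 3 h cultures had thus been in fresh medium for a shorter time than the vehicle cultures, and at 3 h that difference and OxA cannot be told apart.

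A cytokine of the IL-6 family binds a receptor complex that contains gp130, the shared subunit encoded by *Il6st*, often with a second subunit such as the LIF receptor or the oncostatin M receptor. Janus kinases bound to these receptors then phosphorylate STAT proteins, which move to the nucleus and switch on target genes. Among those targets are the SOCS genes, whose proteins shut the same receptors and kinases down, so the pathway carries its own brake. In the hypothalamus the leptin receptor signals through the same kinases and through STAT3, and SOCS3 limits it.

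Depth was 16217786 to 20445364 gene counts per library, and between 21031 and 21618 genes had at least 1 count. Of 10 neuronal markers, 6 had a mean of 2 or more TPM, a measure of transcript abundance corrected for gene length and depth, in vehicle cells, while *Snap25*, *Stmn2*, *Chga* and *Scg2* were below that level. Of 10 leukocyte and microglia markers, *Tyrobp* and *Adgre1* were among those with no counts in any library, and *Ptprc* had 1 count in all. The summed normalized counts of that list were nevertheless 142 to 155 in vehicle, 220.1 to 235 at 3 h and 251 to 285 at 8 h. Most of that sum was *Csf1r*, which rose (log2FC 0.64, SE 0.12, adjusted p = 0.000103 at 3 h; log2FC 0.97, SE 0.11, adjusted p = 4.01e-07 at 8 h). *Cd68*, a macrophage marker in the list, rose at 3 h (log2FC 0.81, adjusted p = 0.0257). The summed normalized counts of the neuronal markers were 19854 to 22449 in vehicle, 20401 to 22089 at 3 h and 16496 to 17620 at 8 h, so that all 8 h cultures lay below vehicle. Most of that sum was *Gnrh1*, with a mean of 16313 in vehicle and 12845 at 8 h. Among the 6 neuronal markers tested, *Map2* (log2FC -0.28, adjusted p = 0.00038) and *Tubb3* (log2FC -0.36, adjusted p = 0.00046) fell at 3 h. The rest did not pass at 3 h. At 8 h *Gnrh1* fell by 0.35 and *Map2* by 0.44 on the log2 scale. The other 4 did not pass at 8 h, namely *Eno2* (-0.12), *Dlg4* (0.0065), *Tubb3* (-0.08) and *Syp* (-0.37). Sums of 7 astrocyte markers (125 to 158, 144 to 160.0 and 151 to 171, with *Aqp4* at 0 counts) and of 9 fibroblast and endothelial markers (1838 to 2112, 1874 to 1932 and 1697 to 1941) overlapped vehicle at both times. Single genes in those lists were called in both directions, given as log2FC. At 3 h *Gja1* (0.45) and *Kdr* (0.21) rose, while *S100b* (-1.12) and *Col1a2* (-0.16) fell. At 8 h *Cdh5* (1.34) and *Gja1* (0.46) rose, while *Kdr* (-0.47) and *Pdgfra* (-0.57) fell. The part of other cells, or of the lower neuronal sum, in the results below was not tested beyond these levels. In bulk samples, fewer cells that express a gene and less RNA per cell cannot be told apart.

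In vehicle cells the signalling machinery was well expressed and the ligands were not. By TPM, 19 of the 38 genes stood at 10 or more, 4 between 1 and 10, and 15 below 1. *Jak1*, a kinase on which gp130 signalling depends, was the highest at 184 ± 1.15 TPM (SD, n = 3). It was followed by *Il6st* at 78.1 ± 4.61, by *Pias1*, a SUMO ligase that binds STAT proteins, at 67.4 ± 1.44, and by *Stat3*, the main STAT of gp130, at 52.0 ± 1.18. The ranges of these 4 genes over the vehicle cultures did not overlap. *Pias3*, *Jak2* and *Ifngr1*, a subunit of the interferon gamma receptor, came next at 41.1, 40.8 and 40.7 TPM and did not differ beyond their spread.

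The receptor subunits that give the complexes their specificity covered a wide range. *Lifr*, the LIF receptor, stood at 30.8 ± 3.27 TPM and *Cntfr*, the subunit for ciliary neurotrophic factor, at 17.9 ± 1.01. *Il4ra*, the interleukin-4 receptor chain, was at 3.31 ± 0.658 and *Osmr*, the oncostatin M receptor, at 2.31 ± 0.309. *Il6ra*, the subunit that binds IL-6 itself, reached 0.116 ± 0.0735 TPM, with 3 to 22 raw counts per library over all 9 cultures. *Lepr* and *Ghr*, the receptors of leptin and growth hormone, had 0 to 4 raw counts per library.

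Among the ligands *Osm*, oncostatin M, had no counts in any of the 9 libraries, which allows up to 3 counts per library, or 0.147 to 0.185 as a count scaled to the library total (CPM). *Ctf1*, cardiotrophin 1, had 0 to 4 raw counts and *Il11* had 1 to 7. *Cntf* was the one ligand above 1 TPM, at 16.7 ± 1.24. This value is uncertain, since 78.9% of the exon bases of *Cntf* lie in exons of *Zfp91* on the same strand. *Stat6*, the STAT of the interleukin-4 receptor, had 0 to 2 raw counts per library and *Stat4* had 0 to 3.

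**Figure D1:**
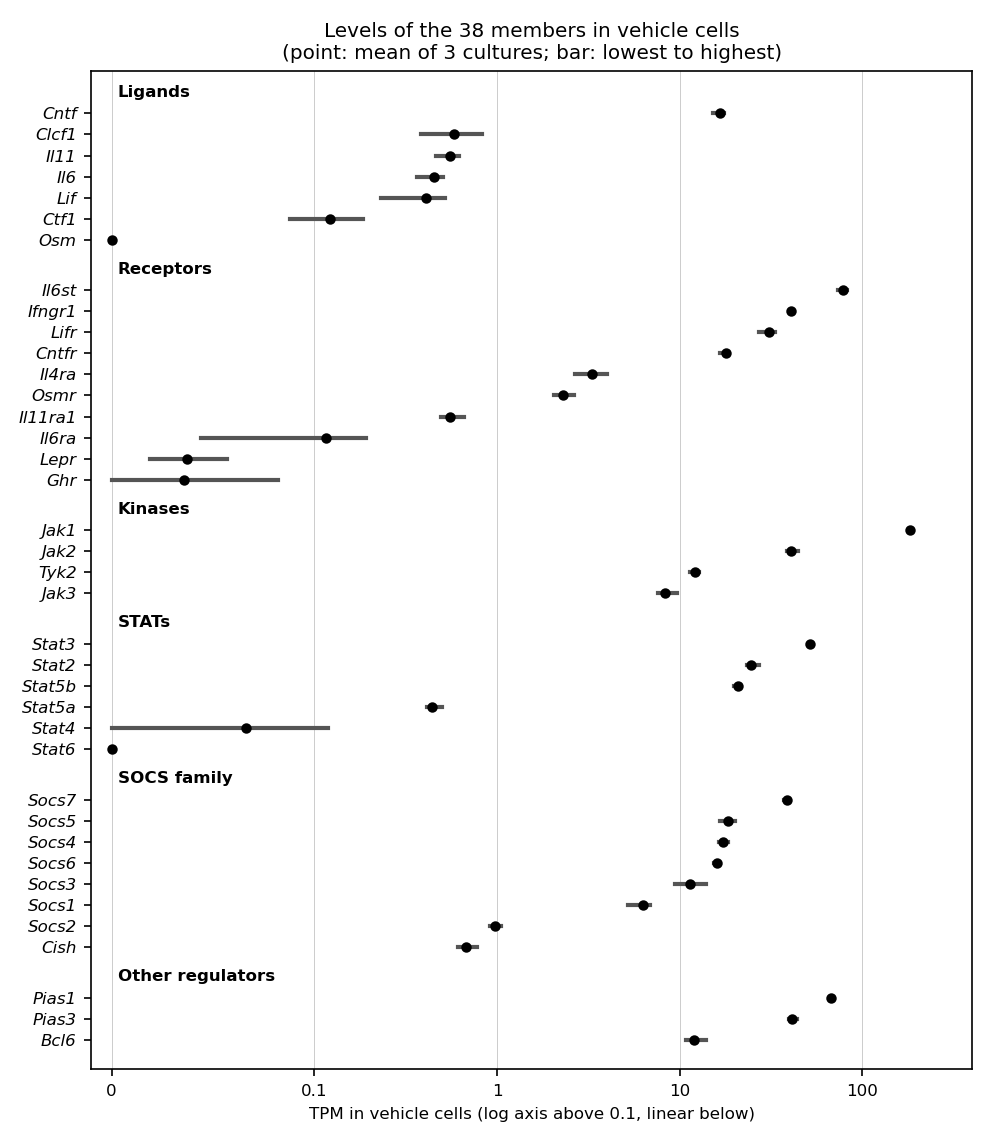
Levels of the 38 genes in vehicle cells in TPM, grouped by role, on an axis that is logarithmic above 0.1 and linear below; each point is the mean of 3 vehicle cultures and each bar runs from the lowest to the highest. Kinases and SOCS genes lie mostly above 1 TPM, whereas every ligand except *Cntf* lies below 1 TPM.

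Which genes of the pathway changed after OxA was asked by comparing each OxA group with vehicle across all genes with edgeR's quasi-likelihood test. At 3 h, 30 of the 38 genes had enough counts to be tested, of which 17 rose, 5 fell and 8 did not pass an adjusted p of 0.05. Among all 15352 genes tested, 20.2% rose and 18.7% fell, 38.9% together. The median log2 fold change (log2FC) of the 30 genes was 0.32, against -0.0040 for all genes. Of the 17 that rose, 7 did so at least 2-fold, as did 2.77% of all genes, and 0 fell 2-fold, against 1.39% of all genes. At 8 h, 31 genes were tested, of which 13 rose, 4 fell and 14 did not pass, and 4 rose at least 2-fold. Of all 15407 genes tested at 8 h, 15.3% rose, 13.1% fell (28.4% together) and 1.25% rose at least 2-fold. The median log2FC was 0.21 for the 31 genes and -0.0081 for all genes. Both comparisons use the same 3 vehicle cultures, so they are not independent of each other. The genes were chosen with earlier results of these data known, so their shares are a description and not a test. With upper-quartile scaling, which moved the median log2FC of all genes by -0.060 at 3 h, 15 of the genes rose and 6 fell at 3 h. That scaling moved the share of all 3 h calls that were rises from 52.0% (3104 up, 2869 down) to 39.5% (2426 up, 3719 down). No tested gene of the pathway changed direction with it or with RLE size factors.

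**Figure D2:**
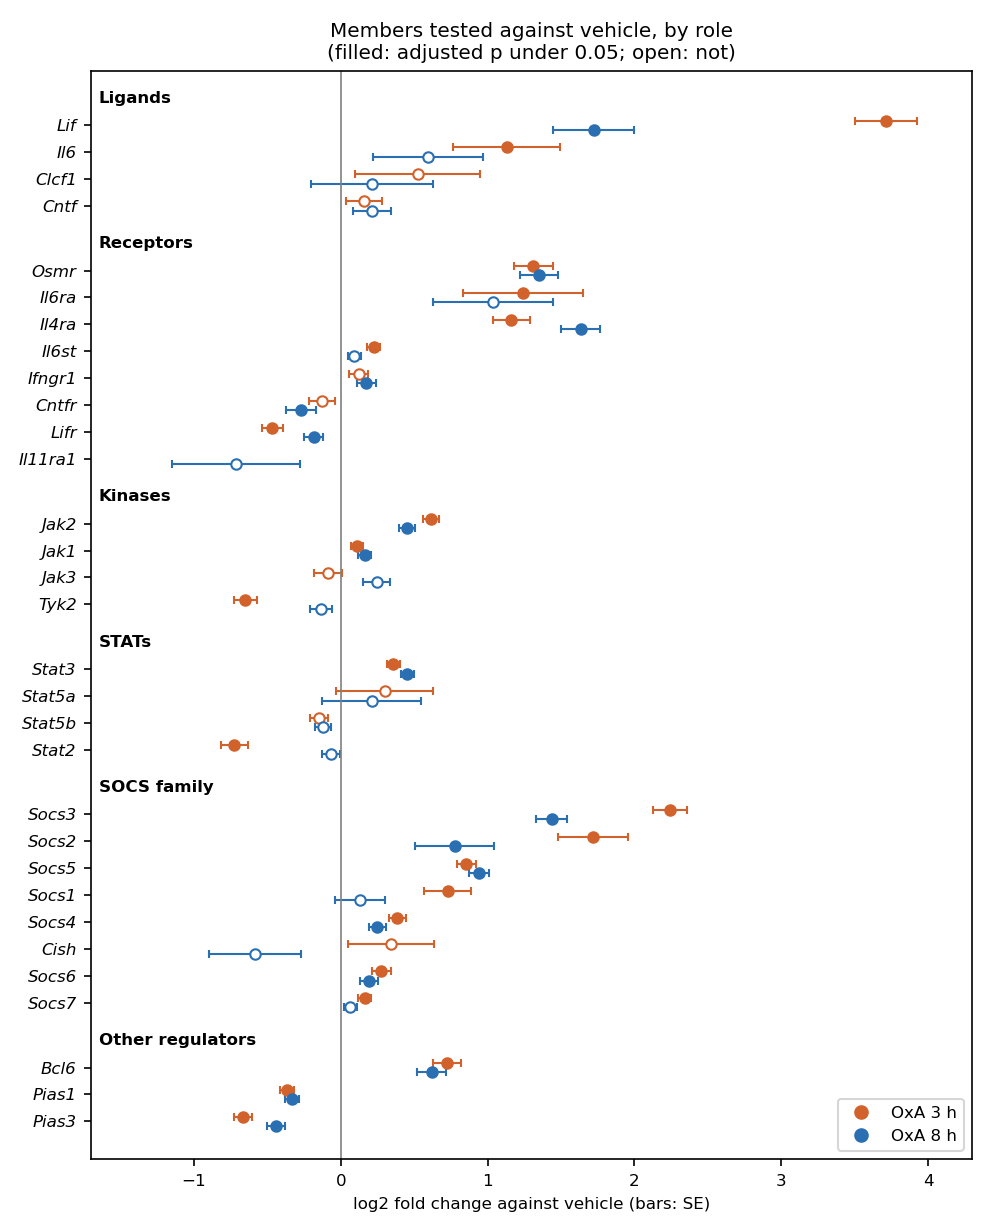
Log2 fold change against vehicle of every tested gene of the pathway at 3 h (orange) and 8 h (blue), grouped by role, with bars of 1 SE; filled points passed an adjusted p of 0.05. *Lif* (3.71) and *Socs3* (2.24) show the largest rises at 3 h, while *Stat2* (-0.73), *Pias3* (-0.67) and *Tyk2* (-0.65) lie furthest to the left at that time.

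Of the ligands, 4 of 7 were tested and *Lif* and *Il6* rose at 3 h, while *Lif* alone passed at 8 h. *Lif* (chromosome 11, 4257557 to 4272514, plus strand, GRCm38) encodes leukemia inhibitory factor, the cytokine that holds mouse embryonic stem cells undifferentiated. Its normalized counts, which are raw counts brought to 1 library size with TMM factors, were 7.69, 14.8 and 16.9 in the vehicle cultures, 158, 175 and 180.1 at 3 h, and 42.4, 41.4 and 46.9 at 8 h. Every OxA culture lay above every vehicle culture, and every 3 h culture above every 8 h culture. The rise was 13.1-fold at 3 h (log2FC 3.71, SE 0.21, adjusted p = 1.66e-12) and 3.30-fold at 8 h (log2FC 1.72, SE 0.28, adjusted p = 3.62e-05). Its size rests on 8, 15 and 17 raw counts in the vehicle cultures. Over the alternatives run, the log2FC was 3.43 to 3.93 at 3 h and 1.45 to 1.95 at 8 h. From 3 h to 8 h *Lif* fell again (log2FC -1.98, SE 0.15, adjusted p = 2.6e-09), yet it remained above vehicle. The level per length went from 0.407 TPM in vehicle to 5.07 TPM at 3 h and 1.30 TPM at 8 h.

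The promoter of *Lif* is shown because this gene rose the most of the 38. The window holds the 239 bases that lie upstream of the annotated first exon, 5′ to 3′, from RefSeq on GRCm38.p6. Capitals mark a match to the AP-1 motif TGANTCA, the element bound by Fos and Jun proteins, which starts at position -228 from the RefSeq start (4257568).
Lif chr11:4257318-4257556 (plus strand): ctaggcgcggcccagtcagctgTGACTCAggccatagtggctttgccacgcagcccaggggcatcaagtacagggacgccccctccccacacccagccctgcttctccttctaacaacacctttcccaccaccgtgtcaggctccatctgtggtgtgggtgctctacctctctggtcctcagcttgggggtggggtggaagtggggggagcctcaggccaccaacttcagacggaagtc
Windows of 250 bases before the RefSeq start were searched on both strands for 6 motifs. They were a STAT motif (TTCNNNGAA), AP-1 (TGANTCA), CRE (TGACGTCA), EGR (GCGNGGGCG), SP/KLF (GGGCGG) and an E-box (CACGTG), and the EGR and SP/KLF motifs can overlap each other. Of 32851 promoter windows, 6.75% held the AP-1 motif. Among the 32 genes of the pathway with a promoter in the table, many of them with more than 1 start, 5 held it, namely *Cntf*, *Ghr*, *Il11*, *Il6* and *Lif*.

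*Il6* (chromosome 5, 30013114 to 30019981, plus strand) encodes the cytokine that names the family. It was counted, after normalization, at 9.62, 6.89 and 9.92 in the vehicle cultures, 20.1, 14.1 and 23.4 at 3 h, and 15.9, 11.7 and 12.3 at 8 h. The 3 h cultures lay above all vehicle cultures but overlapped the 8 h cultures, at counts so low that single reads matter. At 3 h the gene rose (log2FC 1.13, SE 0.36, adjusted p = 0.0152), and at 8 h it did not pass (log2FC 0.59, SE 0.37, adjusted p = 0.25). The 3 h call was lost with DESeq2 (0.0885), without vehicle culture 2 (0.0666) and without 3 h culture 3 (0.0916), where the values are adjusted p.

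*Clcf1*, cardiotrophin-like cytokine, was counted at 5.77, 11.8 and 7.94 in the vehicle cultures, 7.83, 15.2 and 13.2 at 3 h, and 10.6, 10.8 and 7.81 at 8 h. *Cntf*, ciliary neurotrophic factor, was counted at 153, 145 and 132 in the vehicle cultures, 166, 171 and 139 at 3 h, and 176, 186 and 132 at 8 h. The groups overlapped for both ligands, and neither passed at 3 h (0.52 and 0.16) or at 8 h (0.21 and 0.21 on the log2 scale).

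**Figure D3:**
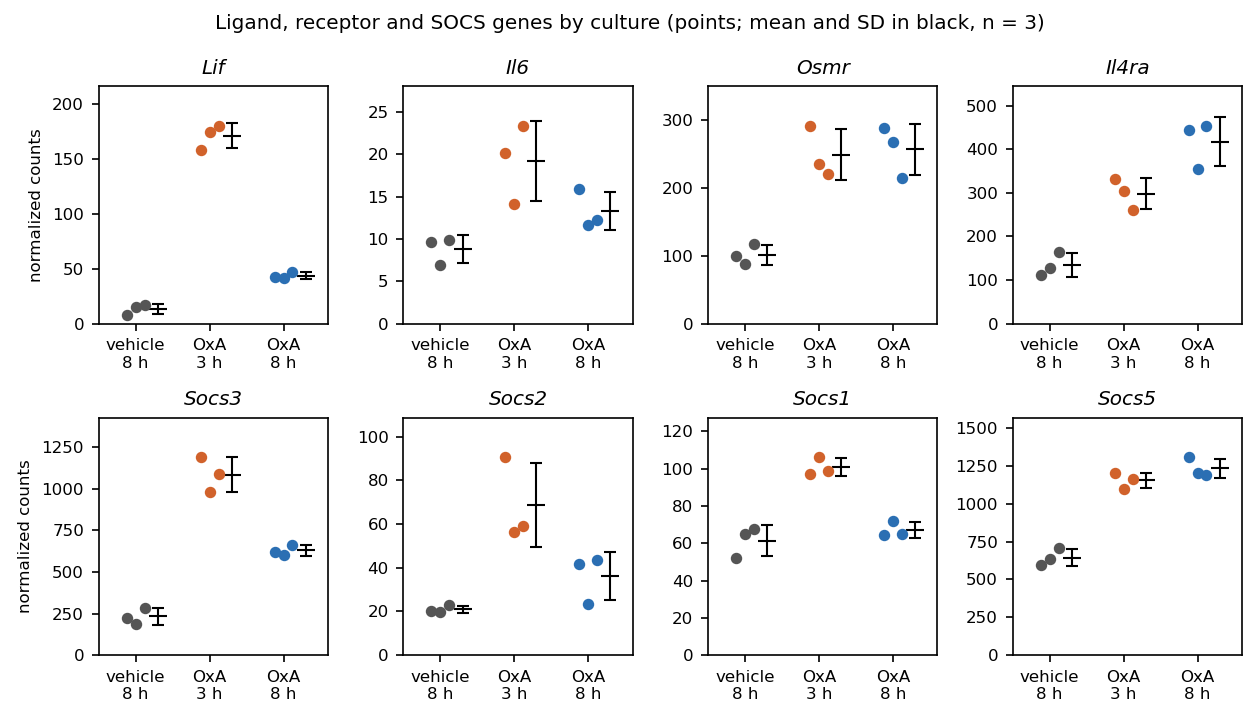
Normalized counts (linear axes from 0) of 2 ligand, 2 receptor and 4 SOCS genes in each of the 9 cultures, with mean and SD of 3 cultures in black. *Lif*, *Socs3*, *Socs2* and *Socs1* are highest at 3 h, whereas *Osmr* and *Socs5* overlap between 3 h and 8 h and *Il4ra* is highest at 8 h.

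Among the receptors, 4 of 7 tested rose at 3 h and 1 fell, beside 20.2% and 18.7% of all genes. At 8 h 3 of 8 rose and 2 fell, beside 15.3% and 13.1% of all genes. *Osmr* (chromosome 15, 6813577 to 6874969, minus strand) encodes the subunit that joins gp130 in the receptor of oncostatin M. Its normalized counts were 99.1, 87.6 and 117 in the vehicle cultures, 292, 235 and 221 at 3 h, and 288, 267 and 215 at 8 h. All OxA cultures lay above all vehicle cultures, and the times overlapped. The rise was 2.48-fold at 3 h (log2FC 1.31, SE 0.13, adjusted p = 2.95e-08) and 2.55-fold at 8 h (log2FC 1.35, SE 0.13, adjusted p = 3.23e-08), and the times did not differ by the test (log2FC 0.05, SE 0.12, adjusted p = 0.811).

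The closely related subunit *Lifr* (chromosome 15, 7090614 to 7197489, plus strand) moved the other way. *Lifr* lies 216 kb from *Osmr* on chromosome 15, with 0 protein-coding genes between them. It was counted at 2285, 2548 and 2779 in the vehicle cultures, 1669, 1866 and 1918 at 3 h, and 2074, 2294 and 2337 at 8 h. The 3 h cultures were below all others, while the 8 h cultures overlapped vehicle. It fell at 3 h (log2FC -0.47, SE 0.07, adjusted p = 0.00013) and less at 8 h (log2FC -0.18, SE 0.06, adjusted p = 0.0436). The 8 h call was lost in one fit of all 9 samples (0.0641), without vehicle culture 2 (0.152), without vehicle culture 3 (0.178), without 8 h culture 1 (0.133) and without 8 h culture 2 (0.0806), given as adjusted p. *Lifr*, the receptor of the ligand that rose the most, had fewer counts at 3 h, while *Osmr*, the receptor of a ligand with no counts, had more.

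*Il4ra* (chromosome 7, 125552120 to 125579474, plus strand) encodes the chain that binds interleukin-4 and also serves interleukin-13. Its normalized counts were 112, 128 and 164 in the vehicle cultures, 331, 304 and 260.4 at 3 h, and 445, 354 and 454 at 8 h. No 2 groups overlapped, and the order was vehicle, 3 h, 8 h. The rise was 2.24-fold at 3 h (log2FC 1.16, SE 0.13, adjusted p = 1.55e-07) and 3.10-fold at 8 h (log2FC 1.63, SE 0.13, adjusted p = 3.54e-08), and the gain from 3 h to 8 h passed the test (log2FC 0.48, SE 0.10, adjusted p = 0.00149). Of the exon bases of *Il4ra*, 9.51% overlap the antisense gene *Gm44876*. The library kit keeps the strand, but the strand setting of the counting is not given in the sources used here.

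*Il6ra* (chromosome 3, 89864059 to 89913196, minus strand) was counted at 13.5, 2.95 and 7.94 in the vehicle cultures, 15.7, 21.7 and 20.3 at 3 h, and 16.8, 19.8 and 13.4 at 8 h. One vehicle culture stood near the OxA cultures and another far below them. It rose at 3 h (log2FC 1.24, SE 0.41, adjusted p = 0.0174), and at 8 h it did not pass (log2FC 1.04, SE 0.41, adjusted p = 0.0592), though it did without vehicle culture 1 (adjusted p = 0.0195). The 3 h call was lost with DESeq2 (0.0768), without vehicle culture 2 (0.108), without 3 h culture 2 (0.0628) and without 3 h culture 3 (0.057), given as adjusted p.

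*Il6st*, the shared gp130 subunit, rose by a small step at 3 h, from 6839 ± 303 to 7906 ± 162 normalized counts (SD, n = 3; log2FC 0.22, SE 0.04, adjusted p = 0.000208). At 8 h it stood at 7291 ± 334 and did not pass (adjusted p = 0.135). *Cntfr*, a membrane-anchored subunit that does not signal itself, did not pass at 3 h (log2FC -0.13) and fell at 8 h (log2FC -0.27, SE 0.10, adjusted p = 0.0498), though its groups overlapped. That call was lost with RLE size factors (0.0514), with DESeq2 (0.119), in one fit of all 9 samples (0.051), without vehicle culture 1 (0.074), without vehicle culture 2 (0.135), without vehicle culture 3 (0.128), without 8 h culture 1 (0.259) and without 8 h culture 2 (0.117), given as adjusted p. *Ifngr1* did not pass at 3 h (log2FC 0.12) and rose at 8 h (log2FC 0.17, SE 0.06, adjusted p = 0.0465). That call was lost with upper-quartile scaling (0.0925), with DESeq2 (0.0991), without vehicle culture 1 (0.109), without vehicle culture 2 (0.141), without 8 h culture 1 (0.169) and without 8 h culture 3 (0.113), again as adjusted p. *Il11ra1*, which has the near-identical copy *Il11ra2*, had 4 to 14 raw counts per library, was tested at 8 h alone of the comparisons with vehicle and did not pass there (log2FC -0.71, SE 0.44, adjusted p = 0.235).

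Of the 4 Janus kinases, *Jak2* and *Jak1* rose at 3 h and *Tyk2* fell, and at 8 h *Jak2* and *Jak1* rose. *Jak2* (chromosome 19, 29251828 to 29313080, plus strand) encodes a kinase of the gp130, growth hormone and leptin receptors. The cultures held 1619, 1509 and 1793 in the vehicle cultures, 2561, 2420.2 and 2471 at 3 h, and 2226, 2196 and 2309 at 8 h, in normalized counts. No 2 groups overlapped, with 3 h the highest. The rise was 1.53-fold at 3 h (log2FC 0.61, SE 0.05, adjusted p = 3.04e-09) and 1.37-fold at 8 h (log2FC 0.45, SE 0.05, adjusted p = 7.13e-07). *Jak1* moved by 0.11 on the log2 scale at 3 h (adjusted p = 0.0345) and by 0.16 at 8 h (adjusted p = 0.00754), within a range of 7018 to 8544 normalized counts over all cultures. Its 3 h call was lost with upper-quartile scaling (0.35), with no filter on low counts (0.0646), in one fit of all 9 samples (0.06), without vehicle culture 1 (0.0641), without vehicle culture 2 (0.126), without vehicle culture 3 (0.0613), without 3 h culture 2 (0.16) and without 3 h culture 3 (0.0912), given as adjusted p.

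*Tyk2* (chromosome 9, 21104068 to 21131243, minus strand) encodes the kinase bound to the type I interferon receptor, and it also serves gp130. Its normalized counts were 468, 456 and 426 in the vehicle cultures, 281, 281 and 289.9 at 3 h, and 424, 391 and 418 at 8 h. The 3 h cultures stood apart below all others, and the 8 h cultures lay just under vehicle without overlap. *Tyk2* fell at 3 h (log2FC -0.65, SE 0.08, adjusted p = 6.2e-07) and did not pass at 8 h (log2FC -0.13, SE 0.08, adjusted p = 0.206), and the times differed (log2FC 0.52, SE 0.08, adjusted p = 4.62e-05). Of its exon bases, 8.07% overlap the antisense gene *1700084C06Rik*. *Jak3*, the kinase of the common gamma chain, did not pass at 3 h (log2FC -0.09) or 8 h (0.24, adjusted p = 0.051). The 8 h rise passed with RLE size factors (0.0491), with no filter on low counts (0.0393), in one fit of all 9 samples (0.0398), without vehicle culture 2 (0.0124) and without 8 h culture 3 (0.0492), given as adjusted p. *Jak3* was higher at 8 h than at 3 h (log2FC 0.34, SE 0.09, adjusted p = 0.00517). Its exons share 7.55% of their bases with *Insl3* on the same strand.

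Among the STAT genes, 4 of 6 were tested. *Stat3* (chromosome 11, 100885098 to 100939540, minus strand), the main transcription factor below gp130 and the leptin receptor, was counted at 2568, 2547 and 2635 in the vehicle cultures, 3383, 3211 and 3234 at 3 h, and 3610.3, 3412 and 3582 at 8 h. The 3 groups did not overlap, with vehicle lowest and 8 h highest. It rose at 3 h (log2FC 0.36, SE 0.04, adjusted p = 5.53e-07) and at 8 h (log2FC 0.45, SE 0.04, adjusted p = 3.23e-08), while 8 h against 3 h did not pass (adjusted p = 0.103) except with upper-quartile scaling (0.0325) or the replicate number as a block. *Stat5b*, a STAT of growth hormone and prolactin receptors, had log2FC values of -0.15 (adjusted p = 0.0544) at 3 h and -0.12 (adjusted p = 0.119) at 8 h. A fall at 3 h passed with upper-quartile scaling (0.00747), with a filter at CPM over 1 (0.0377), in one fit of all 9 samples (0.0416) and without 3 h culture 1 (0.031), and one at 8 h with upper-quartile scaling (0.0463), given as adjusted p. Its neighbour and near twin *Stat5a*, 8.63 kb away, had 12 to 23 raw counts per library and did not pass at either time.

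*Stat2* (chromosome 10, 128270559 to 128292849, plus strand) encodes the STAT that joins IRF9 in the factor activated by type I interferons. Its normalized counts were 839, 926 and 832 in the vehicle cultures, 601, 531 and 427 at 3 h, and 788, 882 and 810.5 at 8 h. All 3 h cultures were below all others, and the 8 h cultures overlapped vehicle. It fell to 0.605 of the vehicle level at 3 h (log2FC -0.73, SE 0.09, adjusted p = 9.94e-06), did not pass at 8 h (log2FC -0.07, SE 0.06, adjusted p = 0.482), and differed between the times (log2FC 0.67, SE 0.09, adjusted p = 6.74e-05).

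Other genes of the interferon receptor, which are not among the 38, were looked at after the values of *Stat2* and *Tyk2* had been seen. *Irf9*, the DNA-binding partner of STAT2, was counted at 1474, 1383 and 1375 in the vehicle cultures, 1003, 914 and 890.1 at 3 h, and 1401, 1431 and 1318 at 8 h. It fell at 3 h (log2FC -0.58, SE 0.06, adjusted p = 1.81e-08) and did not pass at 8 h (log2FC -0.03, SE 0.05, adjusted p = 0.738). *Ifnar1*, a chain of the type I interferon receptor, was counted at 2697, 2553 and 2494 in the vehicle cultures, 2222, 2186 and 2123 at 3 h, and 2589, 2469 and 2601 at 8 h, and fell at 3 h (log2FC -0.23, SE 0.05, adjusted p = 0.00027) but did not pass at 8 h (log2FC -0.02). The other chain, *Ifnar2*, did not pass at either time (log2FC -0.01 and 0.14). Of all genes tested, 18.7% fell at 3 h. In *Irf9*, *Ifnar1*, *Stat2* and *Tyk2*, all 3 h cultures lay below all vehicle cultures. These genes were called on the same cultures, so this separation adds nothing to the calls. Its share over all genes was not counted. As there was no 3 h vehicle, the time since the medium exchange cannot be told apart from OxA in these falls.

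**Figure D4:**
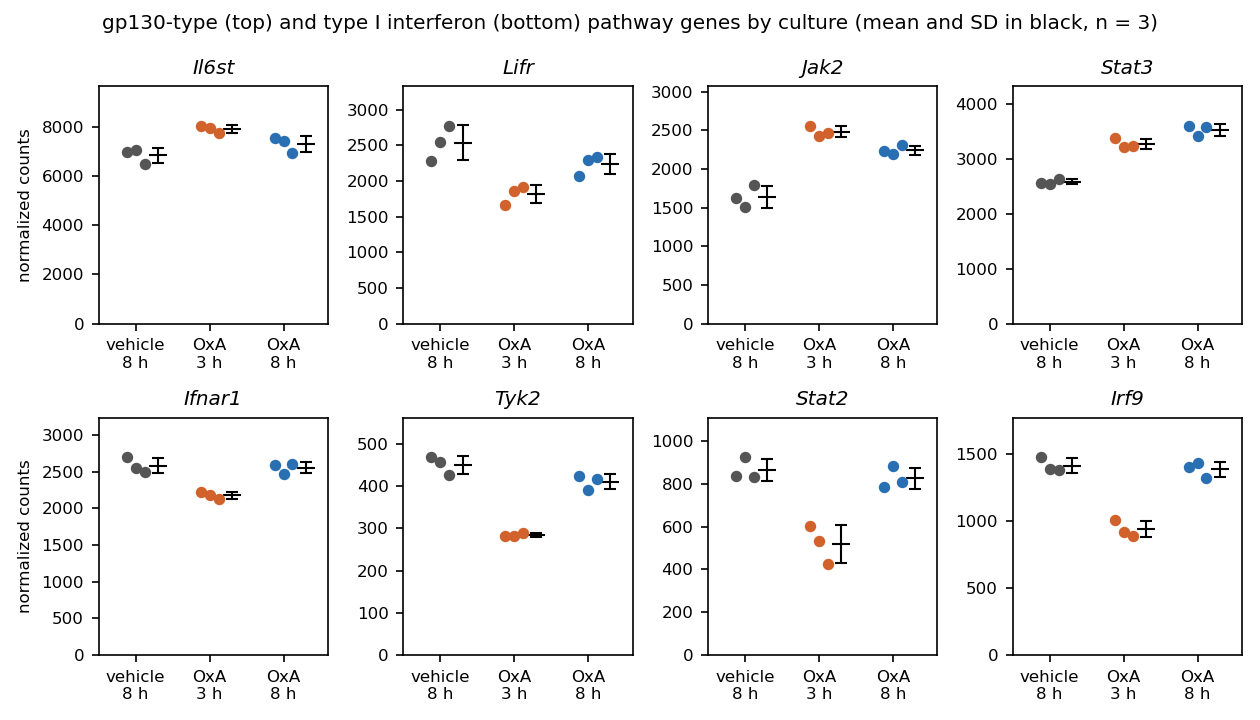
Normalized counts (linear axes from 0) in each of the 9 cultures for *Il6st*, *Lifr*, *Jak2* and *Stat3* (top) and for the type I interferon genes *Ifnar1*, *Tyk2*, *Stat2* and *Irf9* (bottom), with mean and SD of 3 cultures in black; the bottom genes were chosen after their values were seen, and *Ifnar2*, which did not pass at either time, is not plotted. In the bottom row the 3 h cultures lie below vehicle and the 8 h cultures are back near it, whereas *Jak2* and *Stat3* are above vehicle at both times.

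The SOCS family holds the inhibitors that cytokine signalling itself switches on. All 8 members were tested. At 3 h 7 rose and 0 fell, with a median log2FC of 0.56, beside 20.2% and 18.7% of all genes and an all-gene median of -0.0040. At 8 h 5 rose and 0 fell, with a median of 0.22, beside 15.3% and 13.1% of all genes and a median of -0.0081. From 3 h to 8 h 4 of the 8 fell and 0 rose, where 14.3% of all genes fell and 13.7% rose.

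*Socs3* (chromosome 11, 117966079 to 117970047, minus strand) encodes the inhibitor that binds gp130 and the leptin receptor. Its normalized counts were 223, 188 and 286 in the vehicle cultures, 1192, 980.2 and 1087 at 3 h, and 622, 602 and 665 at 8 h. The 3 groups were far apart, in the order vehicle, 8 h, 3 h. The rise was 4.72-fold at 3 h (log2FC 2.24, SE 0.12, adjusted p = 3.14e-09) and 2.71-fold at 8 h (log2FC 1.44, SE 0.11, adjusted p = 1.5e-08). From 3 h to 8 h it fell (log2FC -0.80, SE 0.07, adjusted p = 2.93e-08). In TPM the means were 11.4 in vehicle, 51.1 at 3 h and 29.9 at 8 h.

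The promoter of *Socs3* is printed as that of the SOCS gene with the largest rise, 5′ to 3′, from RefSeq on GRCm38.p6, as the 250 bases before the RefSeq start (117969366). Capitals mark a match to the EGR motif on the opposite strand (position -181), a match to the STAT motif (-154) and a match to the SP/KLF motif (-112), none of which overlap.
Socs3 chr11:117969367-117969616 (minus strand): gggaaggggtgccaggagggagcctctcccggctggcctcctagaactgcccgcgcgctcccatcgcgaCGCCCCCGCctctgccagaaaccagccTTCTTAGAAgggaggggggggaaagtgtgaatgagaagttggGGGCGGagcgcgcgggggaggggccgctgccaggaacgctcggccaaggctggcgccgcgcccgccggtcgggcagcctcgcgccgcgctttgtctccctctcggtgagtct
Of all promoter windows, 7.02% held the STAT motif, 4.70% the EGR motif and 32.7% the SP/KLF motif. Among the 32 genes of the pathway with a promoter in the table, *Socs3* and *Bcl6* held the STAT motif, 5 held the EGR motif and 25 the SP/KLF motif. The E-box was in 2 of them and in 6.02% of all windows, and CRE was in 1 (*Jak1*) and in 1.55%. Counts of pathway genes, here and for AP-1 above, are over any start of a gene, whereas the shares are per single window. They therefore cannot be compared directly. These matches describe the sequence and were not tested for binding.

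*Socs2* (chromosome 10, 95385362 to 95417180, minus strand), an inhibitor of growth hormone signalling, was counted at 20.2, 19.7 and 22.8 in the vehicle cultures, 90.7, 56.4 and 59.0 at 3 h, and 41.6, 23.4 and 43.5 at 8 h. All OxA cultures lay above vehicle, with 8 h culture 2 barely so, and the 3 h cultures were higher than the 8 h cultures. It rose 3.29-fold at 3 h (log2FC 1.72, SE 0.24, adjusted p = 3.57e-06) and 1.71-fold at 8 h (log2FC 0.77, SE 0.27, adjusted p = 0.0336). The 8 h call was lost with DESeq2 (0.109), without vehicle culture 1 (0.0939), without vehicle culture 2 (0.101), without 8 h culture 1 (0.129) and without 8 h culture 3 (0.136), given as adjusted p. *Socs1* (chromosome 16, 10782240 to 10785536, minus strand), which inhibits the Janus kinases directly, was counted at 51.9, 65.0 and 67.5 in the vehicle cultures, 97.4, 106 and 98.7 at 3 h, and 64.5, 72.0 and 64.7 at 8 h. It stood apart at 3 h and overlapped vehicle at 8 h, with a rise at 3 h (log2FC 0.73, SE 0.16, adjusted p = 0.000906) and none that passed at 8 h (log2FC 0.13, SE 0.17, adjusted p = 0.621).

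*Socs5* (chromosome 17, 87107679 to 87137839, plus strand) showed a different time course from these 3. It was counted at 592, 633 and 707 in the vehicle cultures, 1203, 1099.5 and 1163 at 3 h, and 1309.5, 1206 and 1193 at 8 h. The OxA cultures all exceeded vehicle by a wide margin, and the 2 times overlapped. *Socs5* has been linked to the interleukin-4 and EGF receptors, and it rose at 3 h (log2FC 0.86, SE 0.07, adjusted p = 4.29e-10) and at 8 h (log2FC 0.94, SE 0.07, adjusted p = 1.48e-10). No difference between the times passed the test (log2FC 0.09, adjusted p = 0.254).

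*Socs4*, the closest relative of *Socs5*, was counted at 941, 882 and 1014 in the vehicle cultures, 1186, 1263 and 1221 at 3 h, and 1076, 1134 and 1159 at 8 h. *Socs6* was counted at 777, 760.1 and 824 in the vehicle cultures, 879.6, 975 and 975 at 3 h, and 858, 904 and 937 at 8 h. *Socs7* was counted at 2135, 2139 and 2202 in the vehicle cultures, 2469, 2386 and 2330.5 at 3 h, and 2248, 2183 and 2347 at 8 h. In all 3 genes the 3 h cultures exceeded the vehicle cultures, by smaller steps than in *Socs5*. *Socs4* rose at both times (log2FC 0.39, adjusted p = 1.41e-05 at 3 h; 0.25, adjusted p = 0.00227 at 8 h). *Socs6* also rose (0.28, adjusted p = 0.00125; 0.19, adjusted p = 0.0181), with the 8 h call lost without vehicle culture 1 (0.0629), without vehicle culture 2 (0.0675), without 8 h culture 2 (0.0514) and without 8 h culture 3 (0.089). *Socs7* rose at 3 h (0.16, adjusted p = 0.00566), a call lost with upper-quartile scaling (0.0679), and did not pass at 8 h (0.07).

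*Cish* (chromosome 9, 107296026 to 107302784, plus strand), the SOCS family gene induced by STAT5, was the one member of the family that did not pass at 3 h. It had normalized counts of 18.3, 17.7 and 22.8 in the vehicle cultures, 28.0, 17.3 and 28.5 at 3 h, and 14.1, 14.4 and 10.0 at 8 h. The 3 h cultures overlapped vehicle and the 8 h cultures lay below both. Neither comparison with vehicle passed (log2FC 0.34, SE 0.29, adjusted p = 0.381 at 3 h; log2FC -0.58, SE 0.32, adjusted p = 0.176 at 8 h). The lower level at 8 h than at 3 h did pass (log2FC -0.92, SE 0.32, adjusted p = 0.0353), but it was lost without 3 h culture 1 (0.094), without 3 h culture 3 (0.136), without 8 h culture 1 (0.0585), without 8 h culture 2 (0.0607) and without 8 h culture 3 (0.109), given as adjusted p. Its exons overlap the antisense genes *Gm17041* (7.46% of bases) and *Gm17040* (4.07%).

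Of the 3 other regulators, *Bcl6* rose and *Pias1* and *Pias3* fell at both times. *Pias3* (chromosome 3, 96696384 to 96706070, plus strand), whose protein binds STAT3 and blocks it from DNA, was counted at 996, 1046 and 988 in the vehicle cultures, 638, 597 and 653 at 3 h, and 773, 763 and 692 at 8 h. No 2 groups overlapped, with 3 h the lowest. It fell at 3 h (log2FC -0.67, SE 0.06, adjusted p = 8.37e-09) and at 8 h (log2FC -0.44, SE 0.06, adjusted p = 4.97e-06). *Pias1* went from 2074 ± 71.9 normalized counts to 1592 ± 68.4 at 3 h (log2FC -0.37, SE 0.05, adjusted p = 2.48e-06) and 1648 ± 21.7 at 8 h (SD, n = 3; log2FC -0.33, SE 0.05, adjusted p = 6.45e-06).

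*Bcl6* (chromosome 16, 23965052 to 23988852, minus strand) encodes a transcriptional repressor whose DNA sites resemble those of STAT proteins. The normalized counts of *Bcl6* were 315, 297 and 396 in the vehicle cultures, 601, 520.5 and 528 at 3 h, and 477, 504 and 572 at 8 h. All OxA cultures lay above all vehicle cultures, and the times overlapped. It rose 1.65-fold at 3 h (log2FC 0.72, SE 0.09, adjusted p = 1.66e-06) and 1.54-fold at 8 h (log2FC 0.62, SE 0.10, adjusted p = 5.36e-05).

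RefSeq gives 2 starts for *Bcl6*, and both windows are printed because *Bcl6* is the other gene of the 38 with the STAT motif, a choice made after the matches were seen. The sequences are 250 bases before each start, 5′ to 3′, on GRCm38.p6. In the window before the gene's 5′ end, capitals mark a STAT match (position -118), an E-box (-60) and an SP/KLF match (-41). In the window before the start inside the gene, capitals mark 3 STAT matches (-168, -122 and -88). No matches overlap.
Bcl6 chr16:23988853-23989102 (minus strand): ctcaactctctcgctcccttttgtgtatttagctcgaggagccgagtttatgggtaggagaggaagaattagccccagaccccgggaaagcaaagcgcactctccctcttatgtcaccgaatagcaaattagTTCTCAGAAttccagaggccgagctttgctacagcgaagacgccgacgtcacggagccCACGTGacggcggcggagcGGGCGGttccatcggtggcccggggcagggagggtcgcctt
Bcl6 chr16:23981284-23981533 (minus strand): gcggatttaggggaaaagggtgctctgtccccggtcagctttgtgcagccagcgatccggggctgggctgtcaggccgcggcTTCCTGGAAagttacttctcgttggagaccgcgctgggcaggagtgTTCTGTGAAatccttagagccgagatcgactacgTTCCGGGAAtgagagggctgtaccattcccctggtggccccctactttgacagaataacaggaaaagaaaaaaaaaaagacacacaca
Of all 32851 windows, 9 (0.0274%) held at least 3 STAT matches. The cutoff of 3 is the number in the inner *Bcl6* window, which is itself among the 9, so this share is a description and not a test. Reads were counted per gene, so which start was used cannot be told from these data.

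The difference between the times was tested directly by comparing the 8 h with the 3 h cultures. Of 30 genes tested, 6 were higher at 8 h, 7 were lower and 17 did not pass. Of all 15278 genes tested in that comparison, 13.7% were higher at 8 h and 14.3% were lower, and 1.17% were at least 2-fold lower, as *Lif* was. At least 2-fold higher were 0.661% of all genes and 0 of the 30. The 7 lower genes were *Lif*, *Socs1*, *Socs2*, *Socs3*, *Cish*, *Jak2* and *Il6st*. The 6 higher genes were *Stat2*, *Tyk2*, *Il4ra*, *Jak3*, *Lifr* and *Pias3*. Of those 6, *Stat2*, *Tyk2*, *Lifr* and *Pias3* were below vehicle at 3 h, and *Il4ra* was above it. The median log2FC over the 30 genes was -0.079, against 0.0063 for all genes.

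The rest of the pathway was read from lists of other genes. Of 34 further receptors and ligands, 11 were tested, and 3 (27.3%) rose and 4 (36.4%) fell at 3 h, while 4 (36.4%) rose and 2 (18.2%) fell at 8 h, beside the shares of all genes given above. *Csf1*, macrophage colony-stimulating factor, had the largest change of these at 3 h, with 2024, 2016 and 2375 in the vehicle cultures, 5273, 4819.8 and 4448 at 3 h, and 2919.7, 2849 and 2987 at 8 h normalized counts. It rose at 3 h (log2FC 1.19, SE 0.07, adjusted p = 5.24e-09) and less at 8 h (log2FC 0.45, SE 0.05, adjusted p = 1.53e-06), with all 3 groups apart. *Il10rb*, a shared chain of the interleukin-10 family receptors, rose at 3 h (log2FC 0.47) and at 8 h (0.25, adjusted p = 0.0465), and *Crlf2*, the receptor chain for thymic stromal lymphopoietin, rose at 8 h (0.37). *Epor*, the erythropoietin receptor, fell at 3 h (-0.52). The 2 that fell at 8 h were *Prlr*, the prolactin receptor, and *Ifngr2*, a subunit of the interferon gamma receptor. *Prlr* was counted at 64.4, 100.4 and 45.6 in the vehicle cultures and 8.84, 9.90 and 16.7 at 8 h. It did not pass at 3 h (log2FC -0.45, adjusted p = 0.187) and fell at 8 h (log2FC -2.60, SE 0.34, adjusted p = 1.47e-05). *Ifngr2* fell at 3 h (-0.32) and at 8 h (-0.20, adjusted p = 0.0262). *Crlf3*, a cytokine receptor-like factor, fell at 3 h (-0.36, adjusted p = 4.87e-05) and did not pass at 8 h (-0.13). It was higher at 8 h than at 3 h (0.24).

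Of 22 adaptors and phosphatases, 21 were tested, with 7 up (33.3%, against 20.2% of all genes) and 2 down (9.52%, against 18.7%) at 3 h. At 8 h 3 were up (14.3%) and 2 down (9.52%), near the 15.3% and 13.1% of all genes. Upper-quartile scaling gave 6 up and 4 down at 3 h. Their median log2FC was 0.038 at 3 h and 0.032 at 8 h. The adaptors *Sh2b2* (log2FC 0.41) and *Sh2b3* (0.32), the phosphatase *Ptpn1* (0.31), which removes phosphate from Janus kinases, and the ubiquitin ligase *Cbl* (0.29) rose at 3 h. *Gab1*, a docking protein that links gp130 to the MAP kinase pathway, fell at 8 h (log2FC -0.41, SE 0.06, adjusted p = 2.05e-05). From 3 h to 8 h *Gab1* (-0.25), *Ndufa13* (-0.17) and the coactivator *Crebbp* (-0.15) fell, and *Sh2b1* (0.19) rose. Against vehicle, *Sh2b1* fell at 3 h (-0.23) and *Crebbp* rose (0.19), and neither passed at 8 h (-0.05 and 0.03).

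Genes known in other cells to respond to STAT proteins were also counted, of which 22 of 30 were tested. At 3 h 14 (63.6%) rose and 1 (4.55%) fell, with a median log2FC of 0.58, where 20.2% of all genes rose and 18.7% fell. At 8 h 12 (54.5%) rose and 1 (4.55%) fell, with a median of 0.33, where 15.3% of all genes rose and 13.1% fell. Upper-quartile scaling gave 12 up and 3 down at 3 h. This list was chosen with earlier results of these data known, so its shares are a description and not a test. Many of the genes, such as *Myc*, *Junb* and *Fos*, also respond to other pathways. *Myc* rose at 3 h (log2FC 2.36) and 8 h (1.91), *Vegfa* by 2.32 and 1.31, and *Junb* by 1.90 and 0.71. *Fos* rose by 1.48 at 3 h (adjusted p = 2.92e-07) and by 0.82 at 8 h (adjusted p = 0.0159). From 3 h to 8 h *Fos* fell (-0.66, adjusted p = 2.09e-05). Between the times 10 of the 22 (45.5%, against 14.3% of all genes) fell and 2 rose, *Cebpb* (-0.75) among those that fell. Against vehicle *Cebpb* rose by 1.15 at 3 h and by 0.40 at 8 h (adjusted p = 0.00136).

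*Timp1*, an inhibitor of matrix metalloproteinases that IL-6 family cytokines induce in many cells, took a later course. It was counted at 17.3, 17.7 and 15.9 in the vehicle cultures, 76.1, 33.6 and 65.1 at 3 h, and 350.1, 222 and 228 at 8 h. All 3 groups were apart, with 8 h the highest. *Timp1* rose at 3 h (log2FC 1.78, SE 0.29, adjusted p = 2.78e-05) and further by 8 h (log2FC 3.97, SE 0.23, adjusted p = 3.39e-09), and the gain between the times passed (log2FC 2.19, SE 0.29, adjusted p = 0.00103). In the same cultures *Lif*, printed above, was highest at 3 h. Whether the courses of *Lif* and *Timp1* are linked was not tested.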

How the data were processed

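RNA-Seq of 9 GT1-7-OX1 cultures was analysed, 3 per group, with groups taken from the sample labels. The kit (TruSeq Stranded Total RNA) depletes ribosomal RNA. Per the labels and methods, the authors trimmed reads with Trimmomatic, used STAR 2.5.2a for alignment to mm10, and obtained a count for each gene symbol from HTSeq 0.6.0; the annotation and the strand setting are not given in the sources used here. The deposited raw counts of the authors were tested. The deposited TPM values of the authors, scaled per gene length and to a fixed total per sample, gave levels between genes. The authors' comparison tables (fold changes and p-values) and normalized counts were not used.

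Each comparison was fitted on its 2 groups over all genes in R 4.3.3 with edgeR 4.0.16 and limma 3.58.1: filterByExpr, TMM scaling (factors 0.971 to 1.05), robust quasi-likelihood fit, glmQLFTest and Benjamini-Hochberg adjustment over all genes tested. Calls were made at an adjusted p under 0.05. Every adjusted p is edgeR's unless DESeq2 is named. SE is the unshrunk coefficient over the square root of F. Log2FC values are not shrunken beyond edgeR's small prior count. The fits were tested on simulated data. No replicate pair agreed within counting noise (chi-square per degree of freedom 1.96 to 5.31). Intervals for counts of 0 cover counting error only, at 3 counts per library.

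Values per culture are given for genes called against vehicle with a log2FC of at least 0.5 in size, and for ligands and SOCS genes with a mean of 10 or more normalized counts in a group. *Lifr*, *Stat3* and the interferon genes were added after their values were seen. From each other list up to 4 genes with the largest changes and a mean of 50 or more normalized counts are named per comparison, except for 1 gene that is not reported here. *Prlr* and *Ifngr2*, which that rule leaves out, were added because they fell at 8 h. The members and lists were chosen with earlier results of these data known.

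GENCODE M21 (GRCm38, the same assembly as mm10) gave positions and exon overlaps. Promoters are from RefSeq (GRCm38.p6), matched by symbol for 32 of 38 genes; *Socs2* was among the 6 not matched. Alternatives were RLE and upper-quartile scaling, no filter and a filter at CPM over 1 in at least 3 samples, DESeq2 1.42.0, one fit of all 9 samples, the replicate number as a block, and leaving out each culture.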

Additional observations from a re-analysis of the deposited data

Results flagged for a closer look

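No vehicle culture enters edgeR's test of the 8 h against the 3 h cultures. By that test, the counts of 13 genes of the pathway differed between OxA 3 h and OxA 8 h. Each is given as 8 h minus 3 h on the log2 scale, with its adjusted p. Lower at 8 h were *Lif* (-1.98, 2.6e-09), *Socs2* (-0.94, 0.00517), *Cish* (-0.92, 0.0353), *Socs3* (-0.80, 2.93e-08), *Socs1* (-0.59, 0.00523), *Jak2* (-0.15, 0.0173) and *Il6st* (-0.12, 0.0434). Higher at 8 h were *Stat2* (0.67, 6.74e-05), *Tyk2* (0.52, 4.62e-05), *Il4ra* (0.48, 0.00149), *Jak3* (0.34, 0.00517), *Lifr* (0.29, 0.000805) and *Pias3* (0.23, 0.0121). In all 13 the 3 cultures of one time lay on one side of the 3 of the other. The 13 were picked by a test on these same cultures, so this separation adds nothing to the calls. Its share over all genes was not counted. The times also differ in the time since the medium exchange, and its part in these differences cannot be told apart from that of OxA. The calls of *Cish*, *Il6st*, *Jak2* and *Pias3* were lost without at least 1 culture, as follows. *Jak2* lost it without 8 h culture 2 (0.0851), *Pias3* lost it without 3 h culture 2 (0.0863) and without 8 h culture 2 (0.052), *Il6st* lost it with upper-quartile scaling (0.107), with no filter on low counts (0.0504), without 3 h culture 1 (0.0739), without 3 h culture 2 (0.102), without 3 h culture 3 (0.058), without 8 h culture 2 (0.0795) and without 8 h culture 3 (0.153), and *Cish* lost it without 3 h culture 1 (0.094), without 3 h culture 3 (0.136), without 8 h culture 1 (0.0585), without 8 h culture 2 (0.0607) and without 8 h culture 3 (0.109), all as adjusted p.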

How the results depend on the processing

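Of the calls made, 18 of 22 at 3 h, 12 of 17 at 8 h and 9 of 13 between the times held under every alternative run. Leaving out each culture gave 14 to 17 genes up and 5 to 6 down at 3 h (17 and 5 as reported), 11 to 13 up and 2 to 4 down at 8 h (13 and 4), and 5 to 6 higher and 4 to 6 lower between the times (6 and 7). In one fit of all 9 samples 2 genes fell at 8 h. Without vehicle culture 2 or 3, or 8 h culture 1 or 2, the number that fell at 8 h was also 2, and without 8 h culture 2 the number lower at 8 h than at 3 h was 4. DESeq2 called 15 up and 5 down at 3 h and 11 up and 3 down at 8 h. Genes whose log2FC changed sign did so on leaving out 1 culture and were not called in that comparison, and the cause was not tested. Their ranges over the left-out cultures were, for *Jak3* at 3 h, -0.14 to 0.0080, and at 8 h -0.0018 to 0.53 for *Clcf1* and -0.0033 to 0.45 for *Stat5a*. Between the times they were -0.011 to 0.054 for *Stat5b*, -0.037 to 0.18 for *Cntf*, -0.042 to 0.17 for *Osmr* and -0.29 to 0.16 for *Stat5a*. The order of the 3 group means by TPM and by TMM-scaled counts was the same for all 37 genes with counts.

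The groups share replicate numbers, and the methods describe the procedure as done anew for the replicates, but neither they nor the labels say what a number marks. Deviations of same-numbered cultures correlated at 0.0077 to 0.16 (9 pairs, 3 of them over 0.1), and other pairs at -0.12 to 0.070. In 3 of 9 cultures the highest correlation in both other groups was with the same number. With the replicate number as a block, 17 genes rose and 6 fell at 3 h, 16 rose and 4 fell at 8 h, and 7 were higher and 8 lower at 8 h than at 3 h. The calls gained with the block were *Stat5b* at 3 h (adjusted p = 0.0392), *Il6st* (0.0189), *Il6ra* (0.0455) and *Jak3* (0.0196) at 8 h, and *Stat3* (0.0336) and *Socs4* (0.0375) between the times. Between the times *Socs4* also passed without 3 h culture 1 (0.0498). Low counts limit *Il6*, *Il6ra*, *Clcf1*, *Stat5a*, *Il11ra1* and *Cish*, whose libraries held 28 or fewer raw counts each. For *Lif* this holds in the vehicle cultures only, at 8, 15 and 17 raw counts.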
